A study of Mus musculus with 4 samples.

Results

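The 38 genes described here are cell cycle and DNA replication genes, taken by symbol from the 17268 genes whose exons were counted. They comprise 14 S phase genes, 13 mitosis genes, 8 G1 cyclins and kinases, and 3 inhibitors and p53 targets. The list names genes by role and sets no threshold on their levels.

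The cells were N2A, a mouse neuroblastoma line that divides in culture. Each of 4 libraries held poly(A) RNA from cells transfected with lipid complexes for 5 hours and then grown for 3 days. The control library received a control shRNA, the Ptbp1 knockdown an shRNA against Ptbp1, the Ptbp2 knockdown an shRNA against Ptbp2, and the double knockdown both shRNAs. Both genes encode polypyrimidine tract-binding proteins, which bind pyrimidine-rich RNA and regulate splicing. Each group was 1 library from transiently transfected cells. With 1 library a group there is no replicate spread and no test, so every difference below compares libraries. Intervals reflect read counts only, as if each counted read were independent, and hold no spread between samples.

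A dividing cell passes from G1 into S phase, where DNA is copied, and then through G2 into mitosis. D cyclins with Cdk4 and Cdk6, then E cyclins with Cdk2, phosphorylate the retinoblastoma family and free E2F factors, which switch on S phase genes. Mitosis genes are switched on later, largely through the MuvB complex, FoxM1 and B-Myb acting at CHR elements and CCAAT boxes, and the p53 target p21 (Cdkn1a) restrains the kinases.

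The promoters of 4 members are shown because they hold letters known from the regulation of S phase and mitosis genes. They come from RefSeq (GRCm38.p6), which matched 31 of the 38 members. Each is the 250 bases before the annotated start, with matches on either strand in capitals. Cdc6 is at chr11:98907901-98908150 (plus strand), Mcm6 at chr1:128359706-128359955, Ccnb2 at chr9:70421555-70421804 and Cdk1 at chr10:69352913-69353162 (all 3 on the minus strand).
Cdc6: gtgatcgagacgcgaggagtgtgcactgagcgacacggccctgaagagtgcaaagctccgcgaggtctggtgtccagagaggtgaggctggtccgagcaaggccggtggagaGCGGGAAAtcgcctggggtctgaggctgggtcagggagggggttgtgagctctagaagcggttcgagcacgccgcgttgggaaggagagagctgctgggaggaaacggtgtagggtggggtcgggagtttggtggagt
Mcm6: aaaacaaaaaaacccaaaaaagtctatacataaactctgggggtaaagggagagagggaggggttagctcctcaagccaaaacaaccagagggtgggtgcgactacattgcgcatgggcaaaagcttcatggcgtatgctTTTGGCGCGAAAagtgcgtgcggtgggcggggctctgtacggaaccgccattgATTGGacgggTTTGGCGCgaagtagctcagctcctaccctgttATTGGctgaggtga
Ccnb2: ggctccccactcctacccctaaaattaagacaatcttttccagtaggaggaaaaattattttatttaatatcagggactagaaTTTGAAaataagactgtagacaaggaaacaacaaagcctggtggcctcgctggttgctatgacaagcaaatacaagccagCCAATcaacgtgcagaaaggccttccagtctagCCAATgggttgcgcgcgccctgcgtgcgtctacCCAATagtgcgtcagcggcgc
Cdk1: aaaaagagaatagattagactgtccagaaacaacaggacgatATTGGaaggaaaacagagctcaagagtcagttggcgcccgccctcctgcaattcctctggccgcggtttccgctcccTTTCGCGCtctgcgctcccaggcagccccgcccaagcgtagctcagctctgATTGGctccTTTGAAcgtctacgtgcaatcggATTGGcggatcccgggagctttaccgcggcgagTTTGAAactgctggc

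The letters searched were TTTCCCGC, TTTCGCGC, TTTGCCGC and TTTGGCGC for E2F, TTTGAA for the CHR and CCAAT for the CCAAT box, on both strands. In Mcm6, 2 of 3 E2F matches overlap each other. E2F letters were in 4 of 12 S phase promoters (Cdc6, Mcm5, Mcm6, Mcm7) and 1 of 11 mitosis promoters (Cdk1), against 1.86% of all 32851 promoters. CHR letters were in 5 of 11 mitosis promoters (Ccnb2, Cdc20, Cdk1, Mki67, Top2a) and 1 of 12 S phase promoters (Mcm2), against 16% of all. CCAAT was in 10 of 11 mitosis promoters and 8 of 12 S phase promoters, against 33.8% of all. Members were counted by gene, with a match in any promoter of the gene, whereas the share of all counts single promoters. These are matches of letters, not binding sites.

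The 4 libraries held 186156726 to 232038250 exon reads. A read crossing a junction is counted in both of its exons, so these are not molecules. Intervals from exon reads are therefore narrower than their counting error. Ptbp1 stood at 30.2%, 115% and 22.7% of control in the Ptbp1, Ptbp2 and double knockdown. Ptbp2 stood at 203%, 26.2% and 43.1% in the same order, so it was above control where Ptbp1 alone was targeted. Of 13 neuroblastoma and noradrenergic markers, 9 had at least 100 reads, with Tubb3 at 356 to 517 CPM (exon reads scaled to a common library size). Markers of astrocytes, immune and epithelial cells each summed to under 0.2 CPM, with Aqp4 and Krt18 at 0. Oligodendrocyte markers summed to 4.32 to 6.26 CPM and endothelial markers to 3.49 to 4.52, with Kdr at 0. Fibroblast markers summed to 4.28, 8.53, 2.52 and 3.38 CPM in control, Ptbp1, Ptbp2 and double knockdown. Their part in the values below was not tested. In bulk RNA, fewer cells in a phase and less RNA per cell cannot be told apart.

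Most members differed little from control. Called here are genes at 1.5-fold or more with at least 100 exon reads in 1 of both libraries, which 36 members could be. In the Ptbp1 knockdown 2 members were higher (Ccnd3, Ccne1) and 3 lower (Tyms, Bub1, Cdk4), against 12.5% and 3.94% of all genes. In the Ptbp2 knockdown 1 was higher (Ccnd3) and 1 lower (Ccng1), against 4.8% and 8.46%. In the double knockdown 6 were higher (E2f1, Cdc6, Ccnd3, Ccne1, Ccne2, Cdkn1a) and 3 lower (Tyms, Plk1, Ccng1), against 7.9% and 6.62%. Of the 11 members called in exon reads, 9 also passed 1.5-fold the same way by rescaled FPKM (a level per length, divided by the library's own sum). The all-gene shares past both, higher and lower, were 4.76% and 1.5% for Ptbp1, 1.82% and 4.21% for Ptbp2, and 3.23% and 2.83% for the double knockdown.

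**Figure D1:**
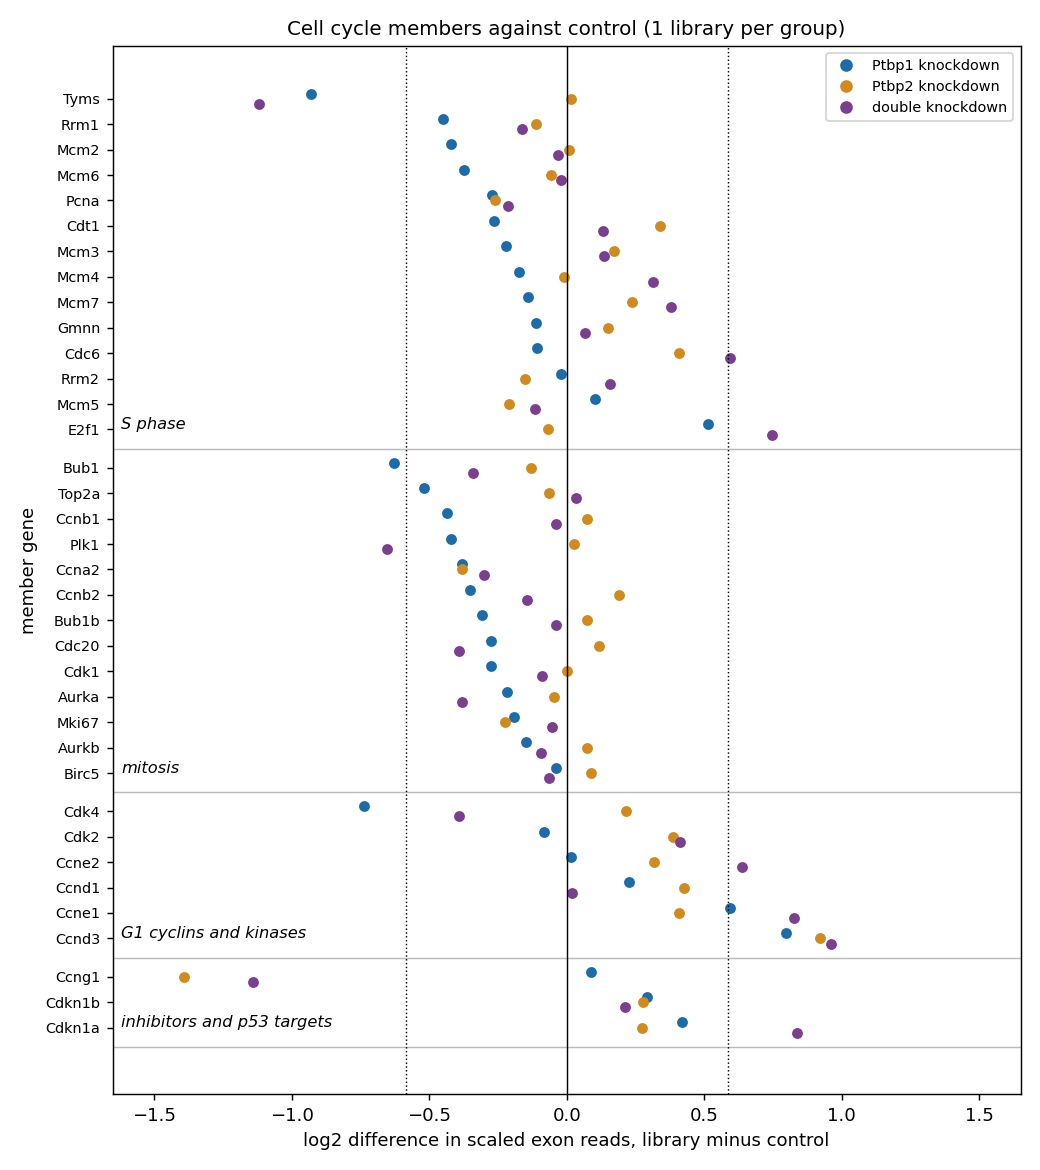
Log2 difference in scaled exon reads from control (horizontal axis) for 36 members (vertical axis) grouped by role, 1 point per knockdown library. Dotted lines mark 1.5-fold. All 13 mitosis members lie left of 0 in the Ptbp1 knockdown, and Tyms and Ccng1 lie furthest left of all.

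The order of the 4 libraries differed by role. The Ptbp1 knockdown was the lowest library for 20 of 36 members, against 30% of all genes, and these were 10 of 14 S phase and 8 of 13 mitosis members with Cdk2 and Cdk4. It was the highest for 3 (Mcm5, Cdkn1b, Ccng1), against 29.7%. The Ptbp2 knockdown was the highest for 15 members, 8 of them mitosis genes, against 29.4%, and the lowest for 5 against 28.8%. The double knockdown was the highest for 11 members against 19%, among them 4 of 6 measured G1 cyclins and kinases, and the lowest for 5 against 17.8%. Control was the lowest for 6 members against 23.5%, namely Ccnd1, Ccnd3, Ccne1, Ccne2, Cdkn1a and Cdkn1b, and the highest for 7 against 22%. No S phase or mitosis member was lowest in control. These ranks use median-of-ratios scaling of exon reads, and no other scaling was ranked. Total-read scaling moved the all-gene median of the Ptbp1 knockdown to 0.17. Some ranks were close, as for Ccna2 at 178.8 CPM in the Ptbp1 and 179.0 in the Ptbp2 knockdown.

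S phase members were slightly below control in the Ptbp1 knockdown and near it otherwise. Their median log2 difference in exon reads was -0.20, -0.00054 and 0.10 in the Ptbp1, Ptbp2 and double knockdown, against all-gene medians of -0.00091, 0.011 and -0.0017. In the Ptbp1 knockdown 12 of 14 lay below control, against 50.1% of all genes. With total-read scaling these were 8 of 14 (median -0.025) against 31.2%, and by rescaled FPKM 9 of 14 against 41.0%. Rrm1, the large subunit of ribonucleotide reductase, stood at 453, 331, 419 and 405 CPM in control, Ptbp1, Ptbp2 and double knockdown, the order used for all 4 values below. Mcm2, a subunit of the replicative helicase, stood at 333, 249, 335 and 326 CPM in that order, so it was low in the Ptbp1 knockdown alone. The 6 helicase subunits Mcm2 to Mcm7 were not uniform: in the Ptbp1 knockdown Mcm5 was 0.10 above control and Mcm2 0.42 below, on the log2 scale. The sliding clamp Pcna, the loading factor Cdt1, its inhibitor Gmnn, the small reductase subunit Rrm2 and the other helicase subunits Mcm3, Mcm4, Mcm6 and Mcm7 ranged from -0.37 (Mcm6, Ptbp1 knockdown) to 0.38 (Mcm7, double knockdown).

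Tyms, thymidylate synthase, which makes the thymidine nucleotide for DNA, was the S phase member that differed most. It stood at 97.7, 51.3, 98.8 and 44.9 CPM. Both libraries with the Ptbp1 shRNA were low and both without it were alike. The log2 differences from control were -0.93 (95% interval -0.96 to -0.90), 0.02 (-0.01 to 0.04) and -1.12 (-1.15 to -1.09). Rescaled FPKM gave -1.70, -0.62 and -1.38, so the Ptbp2 knockdown passed 1.5-fold by FPKM only. In control, transcripts under 1200 bases made up 18.7 of the 33.7 FPKM, and in the knockdowns none of it. Tyms was the 1 member lower by at least 1.5-fold in both Ptbp1 shRNA libraries than in both others, a pattern that 0.538% of all genes showed. This count was 2 by rescaled FPKM, and 0 at 2-fold or without the members that have near-identical copies, of which Tyms is one.

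The 7 counted exons of Tyms (mm9 chr5:30384740-30400165, minus strand) did not differ from control alike. The 6 upstream exons lay between -1.02 and -1.22 in the Ptbp1 knockdown and between -1.25 and -1.57 in the double knockdown. The last exon, of 2934 bases, was at -0.27 and -0.50, with 20.8, 17.1, 20.4 and 14.7 CPM in the 4 libraries. Junction reads gave -1.14, 0.03 and -1.34. A processed pseudogene, Tyms-ps, is 93.9% identical to the reading frame, and its rescaled FPKM was listed at 6.09, 2.87, 6.62 and 1.98. How reads were shared between both loci was not tested.

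Tyms also carries a 122-base cassette exon at mm9 chr5:30396374-30396495. In GENCODE it is in a transcript marked for nonsense-mediated decay, at chr5:30069834-30069955 on GRCm38, found by the sizes of the exon and its neighbours (74 and 175 bases). The sequence is shown because its reading frame, after 37 coding bases of the next exon, ends at the stop codon in capitals.
Tyms cassette exon and following coding bases: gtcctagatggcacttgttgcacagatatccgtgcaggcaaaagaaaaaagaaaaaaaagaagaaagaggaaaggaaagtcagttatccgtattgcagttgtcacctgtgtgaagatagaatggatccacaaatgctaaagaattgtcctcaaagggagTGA
Junction inclusion was 4.1%, 9.82%, 3.74% and 18.8%, with Wilson 95% intervals of 2.98 to 5.63, 6.99 to 13.6, 2.65 to 5.26 and 14.9 to 23.5. The downstream junction had 59, 56, 52 and 116 reads, the upstream junction 13, 5, 10 and 4, and the skipping junction 841, 280, 798 and 259. Inclusion was highest in the double knockdown, where the downstream junction had most reads. Skipping reads were fewer in both Ptbp1 shRNA libraries than in the others. The upstream junction had few reads in every library and fewest in the double knockdown. High inclusion there thus rests on the downstream junction and on fewer skipping reads. Inclusion averages both junctions, and the Wilson intervals do not cover the gap between them. The SpliceTrap ratio gave 4, 8.9, 3.6 and 17%. No cassette exon of a member differed by 20 percentage points in any knockdown, over 392 events of 36 members, against 0.365%, 0.186% and 0.582% of all events in the Ptbp1, Ptbp2 and double knockdown.

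**Figure D2:**
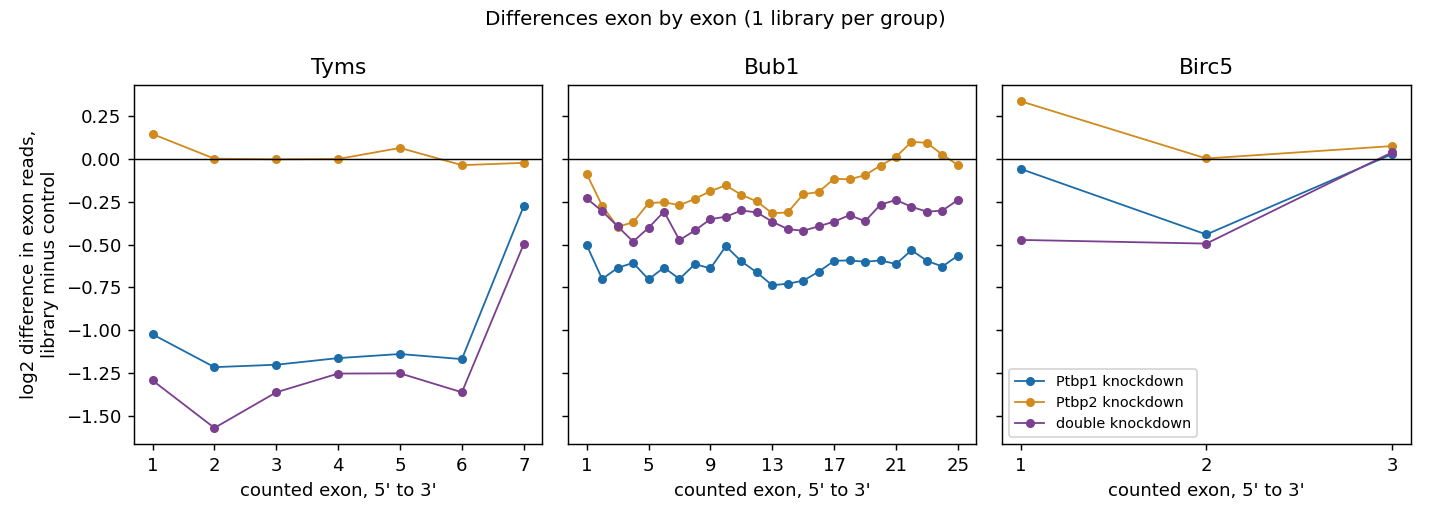
Log2 difference from control for each counted exon in transcript order (horizontal axis) of Tyms, Bub1 and Birc5, 1 line per knockdown library. The last exons of Tyms and Birc5 lie above their upstream exons in the Ptbp1 and double knockdown, while the 25 Bub1 exons stay within -0.74 and -0.50 in the Ptbp1 knockdown.

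Of the other S phase members, E2f1, a transcription factor of the G1 to S transition, and Cdc6, which loads the helicase at origins, were past 1.5-fold by exon reads in the double knockdown. In the Ptbp1 knockdown E2f1 was at 0.51, and past 1.5-fold with upper-quartile (0.59) and total-read (0.69) scaling. E2f1 stood at 64.9, 92.6, 61.9 and 109 CPM, highest in the 2 Ptbp1 shRNA libraries. Cdc6 stood at 78.2, 72.5, 104 and 118 CPM. Rescaled FPKM gave 0.45 for E2f1 and 0.52 for Cdc6 in the double knockdown, short of 1.5-fold, and -0.85 for Cdc6 in the Ptbp1 knockdown. Cdc6 has a processed pseudogene, Gm9430, 95.2% identical over 86% of its frame.

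The mitosis members were below control together in the Ptbp1 knockdown, by a small amount. All 13 were lower, with a median log2 difference of -0.31 and a range from -0.63 (Bub1) to -0.038 (Birc5). Of all genes, 50.1% were below. In the Ptbp2 knockdown 5 of 13 were lower (median 0.03), and in the double knockdown 12 of 13 (median -0.09). Total-read scaling, which moved the all-gene median to 0.17, 0.037 and 0.12 in the 3 comparisons, left 11 of 13 lower in the Ptbp1 knockdown and 6 of 13 in the double knockdown. Measured against the all-gene median of exon reads, 13 of 13 lay below in the Ptbp1 knockdown and 12 of 13 in the double knockdown. By rescaled FPKM these were 12 and 8 of 13. A scaling of exon reads moves all genes and their median nearly alike. The 3 scalings thus give the same counts by construction, which is no separate support. In 10 of 13 mitosis members both Ptbp1 shRNA libraries were below both libraries without it, against 22.8% of all genes. This was 7 of 13 against 18.5% with upper-quartile and 5 of 13 against 11.1% with total-read scaling. By rescaled FPKM 6 of 13 were below against 14.4%, and 1 of 13 above against 27.3%. A gap of any size counts here, as for Ccnb1 at 412 CPM in the double knockdown and 423 in control. By exon reads 0 of 13 were apart by 1.5-fold, against 0.538% of all genes. Of 53 other mitosis genes, 20 (37.7%) were below in this way by median-of-ratios scaling. The S phase median minus the mitosis median was 0.11, -0.03 and 0.19 in the Ptbp1, Ptbp2 and double knockdown, and 0.14, -0.0082 and 0.27 by rescaled FPKM. The Ptbp2 shRNA split differed: 5 of 14 S phase members (Cdc6, Cdt1, Gmnn, Mcm3, Mcm7) and 0 of 13 mitosis members were higher in both libraries with it than in both without, against 19.7% of all genes. The mitosis count was 2 of 13 with upper-quartile scaling, 4 of 13 with total-read scaling (against 20.2% of all genes) and 2 of 13 by rescaled FPKM. Outside the members, 14 of 53 mitosis genes and 23 of 49 S phase genes were higher in this way.

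Top2a, the topoisomerase that untangles chromosomes, was among the most abundant members at 1532, 1069, 1465 and 1567 CPM. It was low in the Ptbp1 knockdown alone. Cdk1, the kinase that drives entry into mitosis, stood at 347, 287, 348 and 327 CPM, again lowest there. Its rescaled FPKM was 88.3, 139, 87.3 and 164, in the other direction. Transcripts shorter than 1200 bases, assembled in the Ptbp1 and double knockdown only, made up 97.5 and 138 of those sums.

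Bub1, a kinase of the spindle checkpoint (mm9 chr2:127625936-127657595, minus strand), stood at 221, 143, 202 and 175 CPM. Every one of its 25 exons was below control in the Ptbp1 and double knockdown. The log2 differences were -0.63 (-0.65 to -0.61), -0.13 (-0.15 to -0.11) and -0.34 (-0.36 to -0.32), and -0.87, -0.46 and -0.65 by rescaled FPKM. The first falls short of 1.5-fold with upper-quartile (-0.55) and total-read (-0.45) scaling. Plk1, a polo-like kinase of mitotic entry and exit (mm9 chr7:129301011-129313389, plus strand), stood at 119, 88.9, 121 and 75.7 CPM, low in both Ptbp1 shRNA libraries. Its log2 differences were -0.42 (-0.45 to -0.39), 0.03 and -0.65 (-0.68 to -0.63), and -1.08, -0.11 and -1.06 by rescaled FPKM. Total-read scaling gave -0.53 in the double knockdown. Its processed pseudogene Plk-ps1 is 93.5% identical.

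Birc5, survivin, a subunit of the chromosomal passenger complex, stood at 86.6, 84.3, 92.1 and 82.8 CPM, with log2 differences of -0.038, 0.090 and -0.065. Junction reads gave -0.45, -0.00 and -0.65. The last counted exon, of 3081 bases, held 14739 of the 19061 control reads and stood at 66.9, 68.3, 70.6 and 68.8 CPM, whereas exon 2 was at -0.44 and -0.49 in the Ptbp1 and double knockdown. The remaining mitosis members, including Ki-67 (Mki67), cyclins A2, B1 and B2, Bub1b, the Aurora kinases and Cdc20, ranged from -0.44 to 0.19 over the 3 knockdowns.

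**Figure D3:**
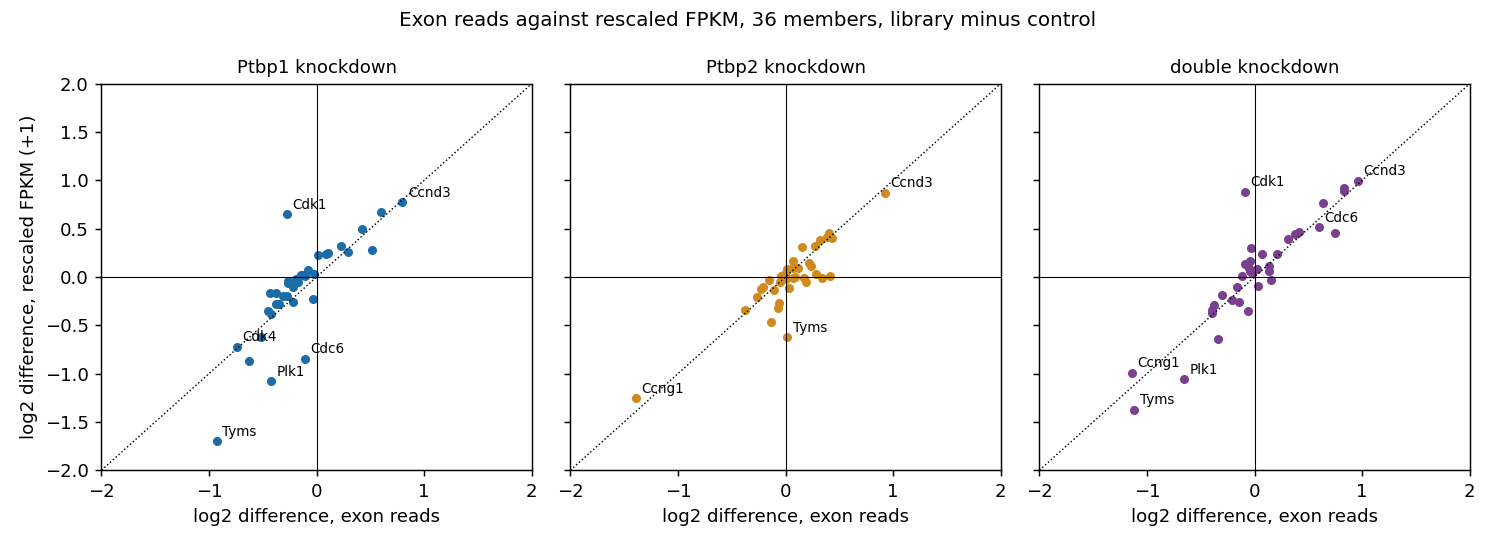
Log2 difference from control by exon reads (horizontal axis) against rescaled FPKM plus 1 (vertical axis) for 36 members, 1 panel per knockdown. The dotted line is equality. Cdk1 lies far above it in the Ptbp1 and double knockdown, and Cdc6, Plk1 and Tyms below it in the Ptbp1 knockdown.

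Of the G1 cyclins, Ccnd3, Ccne1 and Ccne2 were higher than control in at least 1 knockdown by 1.5-fold, and the kinase Cdk4 was lower. Ccnd3, the D cyclin with the largest difference (mm9 chr17:47641991-47736637, plus strand), stood at 61.6, 107, 117 and 120 CPM. All 3 knockdown libraries were above control by 1.74, 1.90 and 1.95 times. The log2 differences were 0.80 (0.77 to 0.83), 0.92 (0.89 to 0.95) and 0.96 (0.93 to 0.99), and 0.77, 0.87 and 1.00 by rescaled FPKM. All 5 exons with at least 100 reads were higher in every knockdown. Ccnd3 has a processed pseudogene, Ccnd3-ps, 96.3% identical, and overlaps Bysl on the other strand by 358 bases.

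Ccne1 and Ccne2 encode E cyclins, which activate Cdk2. Ccne1 (mm9 chr7:38883003-38892545, minus strand) stood at 44.4, 67.2, 58.9 and 79.0 CPM, lowest in control. Its log2 differences were 0.60 (0.56 to 0.63), 0.41 (0.37 to 0.45) and 0.83 (0.79 to 0.87), and all 11 of its exons with at least 100 reads were higher in each knockdown. Ccne2 (mm9 chr4:11118348-11131926, plus strand) stood at 91.4, 92.4, 114 and 142 CPM, so control and the Ptbp1 knockdown were alike and the double knockdown was highest. The log2 differences were 0.02 (-0.01 to 0.04), 0.32 (0.29 to 0.34) and 0.64 (0.61 to 0.66), and 0.77 by rescaled FPKM in the double knockdown. Ccne2 overlaps Ints8 on the other strand by 5622 bases, and its junction reads gave 0.11, 0.35 and 0.77.

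Cdk4, the kinase partner of D cyclins (mm9 chr10:126500659-126504338, plus strand), stood at 496, 297, 576 and 377 CPM, lowest in the Ptbp1 knockdown and below control in the double knockdown. The log2 differences were -0.74 (-0.75 to -0.72), 0.22 (0.20 to 0.23) and -0.39 (-0.41 to -0.38), with -0.72, 0.15 and -0.37 by rescaled FPKM. Total-read scaling gave -0.57 in the Ptbp1 knockdown, short of 1.5-fold. Inclusion of its 234-base exon (mm9 chr10:126501276-126501509, plus strand) was 80.3%, 74.5%, 79.5% and 70.0%, with Wilson intervals of 79.2 to 81.3, 73.0 to 76.1, 78.5 to 80.5 and 68.7 to 71.4. The upstream junction had 1656, 1030, 2747 and 1258 reads, the downstream junction 6805, 3525, 7083 and 5024, and the skipping junction 1041, 778, 1265 and 1344. Inclusion averages both junctions, and these intervals do not cover the gap between them. By this average the Ptbp1 and double knockdown were below control, as by reads. The lowest library was the double knockdown by inclusion and the Ptbp1 knockdown by reads.

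The other measured members of this group were Ccnd1 at 176, 205, 236 and 178 CPM and Cdk2 at 101, 95.7, 133 and 135 CPM. Neither passed 1.5-fold. Ccnd2 had 0 reads in each library, which allows up to 0.0136 CPM in control from 3 counts, and Cdk6 had 2, 10, 0 and 2 reads. These 2 members were not called. Inclusion of the 144-base exon of Cdk2 was 16%, 14.8%, 8.54% and 10.8%, lower in both libraries with the Ptbp2 shRNA. The Wilson intervals were 13.6 to 18.6, 12.4 to 17.5, 7.01 to 10.4 and 9.14 to 12.7. Those of the Ptbp1 and double knockdown overlap, so by read counts alone this split is not clear.

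**Figure D4:**
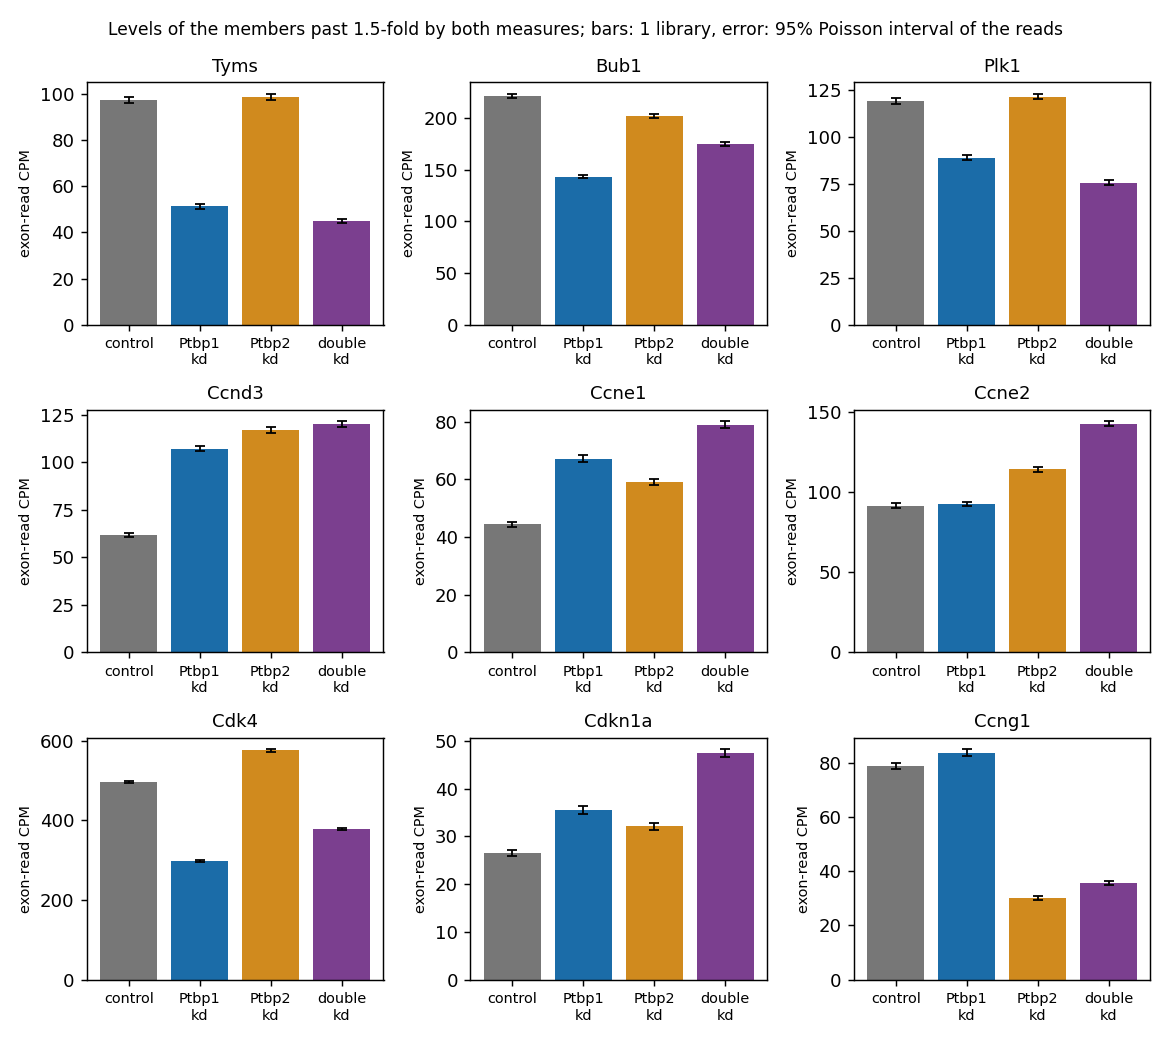
Exon-read level in CPM (vertical axis from 0) of the 9 members past 1.5-fold by both measures in each of 4 libraries. Bars are 1 library each and error bars are exact 95% Poisson intervals of the reads, which count a junction read in both of its exons. Tyms, Plk1, Bub1 and Cdk4 are lowest in the libraries with the Ptbp1 shRNA, and Ccng1 in those with the Ptbp2 shRNA. Ccnd3, Ccne1, Ccne2 and Cdkn1a are lowest in control.

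Among inhibitors and p53 targets the 2 called members differed in which libraries stood apart. Cdkn1a, p21 (mm9 chr17:29227862-29237667, plus strand), stood at 26.5, 35.5, 32.1 and 47.4 CPM. Its log2 differences were 0.42 (0.37 to 0.47), 0.27 (0.22 to 0.33) and 0.84 (0.79 to 0.88), and the last was past 1.5-fold. Ccng1, cyclin G1, a p53 target (mm9 chr11:40562054-40568799, minus strand), stood at 78.8, 83.7, 30.0 and 35.6 CPM, low in both libraries with the Ptbp2 shRNA. The log2 differences were 0.09 (0.06 to 0.12), -1.39 (-1.44 to -1.35) and -1.14 (-1.18 to -1.11), and -1.26 and -0.99 by rescaled FPKM for the last 2. All 6 Ccng1 exons were lower in both. Ccng1 was the 1 member lower by at least 1.5-fold in both Ptbp2 shRNA libraries than in both others, a pattern of 1.46% of all genes. Cdkn1b, p27, stood at 90.6, 111, 110 and 105 CPM and was not called.

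Other genes of the same pathways were listed too. Of 53 other mitosis genes, in the Ptbp1 knockdown 0 were higher and 3 lower by 1.5-fold, with a median of -0.26, against the 12.5% and 3.94% of all genes given above. Of 49 other S phase genes, 0 were higher and 1 lower there, with a median of -0.15, and 3 were higher in the double knockdown. With total-read scaling the S phase median was 0.03 and the mitosis median -0.09. In the Ptbp2 knockdown E2f2 was higher among the S phase genes, and 0 mitosis genes passed either way. In the double knockdown 0 mitosis genes were higher and 3 lower (Kif23, Kif22, Ect2). Of 18 other G1 genes, 0 were higher in any knockdown, and Rbl1 was lower in each, with Rb1 in the Ptbp2 knockdown. The all-gene shares lower were 3.94%, 8.46% and 6.62% in the Ptbp1, Ptbp2 and double knockdown. By both measures Rbl1 passed in the double knockdown alone.

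Ect2, an exchange factor of cytokinesis, stood at 183, 82.4, 148 and 90.8 CPM, low in both Ptbp1 shRNA libraries. Rbl1, the pocket protein p107, stood at 68.5, 42.7, 41.2 and 32.8 CPM, below control in every knockdown. E2f2, an E2F activator, stood at 46.6, 56.1, 77.3 and 108 CPM and E2f8, a repressor of the family, at 57.7, 63.5, 76.0 and 95.3, both highest in the double knockdown.

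Kif22, a mitotic chromokinesin, stood at 149, 116, 154 and 90.02 CPM, lowest in the double knockdown. Of 17 other inhibitors and p53 targets, 5 were higher by 1.5-fold in the Ptbp1 knockdown (Cdkn1c, Gadd45b, Gadd45g, Bbc3, Trp53inp1) and 0 lower, against 12.5% and 3.94% of all genes, and all of these but Bbc3 passed by both measures. In the Ptbp2 knockdown 2 were higher and 2 lower, against 4.8% and 8.46%. In the double knockdown 2 were higher and 2 lower, against 7.9% and 6.62%. Trp53inp1, a p53 target, stood at 3.47, 12.6, 1.05 and 3.39 CPM, and Gadd45b, a growth arrest gene, at 13.8, 24.7, 14.2 and 16.1. Cdkn1c, p57, was at or under 1.03 CPM in every library. Cdkn2c, an inhibitor of Cdk4 and Cdk6, stood at 6.92, 10.1, 9.75 and 11.1 CPM, past 1.5-fold in the double knockdown.

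**Figure D5:**
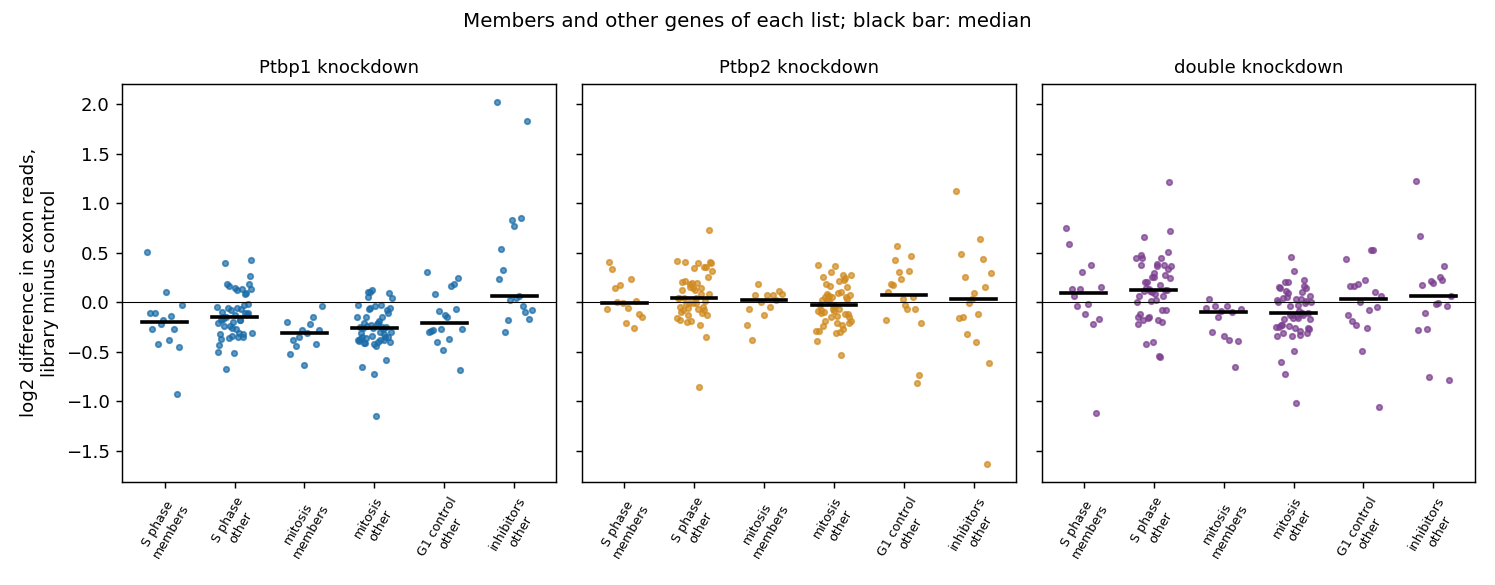
Log2 difference in exon reads from control (vertical axis) for each measured gene of 6 lists, 1 panel per knockdown. Black bars are medians; the medians of the mitosis lists lie below 0 in the Ptbp1 knockdown, at -0.31 for members and -0.26 for other genes.

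Sorted by shRNA, a grouping chosen after the values were seen, 14 of 36 members were lower in both libraries with the Ptbp1 shRNA than in both without it, against 22.8% of all genes. Besides the 10 mitosis members these were Tyms, Rrm1, Cdk4 and Mcm2, the last narrowly (double knockdown 326 CPM, control 333). The reverse held for 3 members (E2f1, Ccne1, Cdkn1a), against 22.4%, and 0 of these were apart by 1.5-fold, against 2.32%. That last count was 1 with upper-quartile scaling, with total-read scaling and by rescaled FPKM. With the Ptbp2 shRNA, Mcm5 and Ccng1 were lower in both libraries, against 20.3%. Higher in both were 8 members, the 5 S phase members named above with Ccnd3, Ccne2 and Cdk2, and 0 of them by 1.5-fold, against 0.353%.

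Near-identical copies touch 10 members. Besides those named above, Ccnb1, Cdc20, Gmnn, Mcm4, Mcm7 and Pcna have processed pseudogenes at 91.1% to 99.2% identity, so their values are uncertain by the reads these could share. Ccna2, Cdc20, Mcm4 and Mcm7 overlap genes on the other strand, and Mcm7 holds the microRNA genes Mir25, Mir93 and Mir106b.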

How the data were processed

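Poly(A) RNA of N2A cells was sequenced as paired 100-base reads in 4 strand-specific libraries, 1 per group. Per the submitters' processing notes, CASAVA, TopHat and Cufflinks were used with mm9; no version is stated. The FPKM of genes and transcripts were deposited by the authors, assembled separately per library, on an unusual scale, and were divided here by each library's sum of FPKM times length. The deposited transcript files also give a coverage signal and a score, neither used beyond coordinates. The deposited SpliceTrap tables give, per the file headers, junction read counts, an inclusion ratio (a fraction) and exon coverage (a signal) for 228333 events, of which 218362 are cassette events. Exon coverage times size over 100 gave whole reads for 99.9985% of values (tolerance 0.02). Reads were summed over distinct non-overlapping exons, with 1 trio per exon, scaled by median of ratios over 4 libraries to CPM (relative to the mean library total), and compared as log2(CPM + 0.1). RefSeq transcripts named genes (33852 of 34850 transcripts, 97.1%). Called genes pass 1.5-fold with at least 100 reads; FPKM used a pseudocount of 1. Cassette inclusion needed 20 junction reads.

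Copies were found with BLAST 2.17.0 at 90% identity over 50% of the frame in GENCODE vM21 transcripts. Promoter letters were searched in 250 bases of RefSeq promoters. Computation used Python 3.11.15, NumPy 2.4.6, pandas 2.3.3, SciPy 1.17.1 and matplotlib 3.10.9; the fold call was tested on simulated data. The design has no replicates, so no test was run, and no pairing exists. The members and lists were chosen with earlier results of these data known. Every member is accounted for; members past 1.5-fold in both measures, and the 2 highest of each role by mean rescaled FPKM among the others, are given with all 4 values. Of pathway genes, the 3 largest differences per direction and comparison past both measures are named. Values of some listed genes are not reported here. The split by shRNA, and E2f1, Cdc6, Birc5 and the Cdk2 and Tyms exons, were singled out after their values were seen. Exon counting is not stated to use strand.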

Additional observations from a re-analysis of the deposited data

How the results depend on the processing

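No paired analysis was possible because each group held 1 library, and no library could be left out. Medians are log2 differences from control, given for the Ptbp1, Ptbp2 and double knockdown as named. With total-read scaling 4 members were higher and 1 lower in the Ptbp1 knockdown. The S phase medians were -0.025, 0.025 and 0.23 and the mitosis medians -0.14, 0.054 and 0.034. Medians of the other genes were 0.027 (Ptbp1) and 0.25 (double) for S phase, -0.086, -0.0041 and 0.022 for mitosis, -0.035 (Ptbp1) and 0.16 (double) for G1, and 0.24 (Ptbp1) and 0.20 (double) for inhibitors. With upper-quartile scaling S phase medians were -0.12, 0.027 and 0.14 and mitosis -0.23, 0.056 and -0.052. Those of the other genes were -0.072 (Ptbp1) and 0.17 (double), -0.18, -0.0024 and -0.064, -0.13 (Ptbp1) and 0.076 (double), and 0.14 (Ptbp1) in the same order. By rescaled FPKM 6 members were lower in the Ptbp1 and 2 in the Ptbp2 knockdown. S phase medians were -0.058 (Ptbp1) and -0.025 (Ptbp2), and mitosis -0.19, -0.017 and -0.18. The other genes gave -0.064, 0.082 and 0.23 for S phase, -0.11, 0.022 and 0.025 for mitosis, -0.11, 0.14 and 0.18 for G1, and 0.14 (double) for inhibitors. Junction reads gave S phase medians of -0.16 (Ptbp1) and 0.13 (double), mitosis -0.27 (Ptbp1), other S phase -0.10 (Ptbp1) and 0.17 (double), other mitosis -0.20, -0.00093 and -0.076, and other inhibitors 0.20 (Ptbp1). With no minimum of reads the other inhibitors were at 0.15 (Ptbp1) and 0.12 (double). At 2-fold 0 members were higher in any knockdown and 0 lower in the Ptbp1 knockdown. Without the 10 members that have near-identical copies, 1 was higher in the Ptbp1 and 0 in the Ptbp2 knockdown and 1 lower in the double knockdown. The S phase medians were then -0.24, -0.062 and 0.056 and the mitosis median -0.022 (Ptbp2). The cause of these shifts was not tested. With a minimum of 500 reads the medians of the other inhibitors were 0.057, 0.015 and 0.030, against 0.065, 0.037 and 0.070 as reported. This minimum and a pseudocount of 1 shifted medians by no more than the counting error of a middle gene and left each count within 1.5 times, and 0 cassette exons passed 20 points under any alternative run. The alternatives for the other pathway genes, for the split by shRNA and without copies were chosen after seeing the data.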
